A study of Caenorhabditis elegans with 2 samples.

Results

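Candidate binding sites of NHR-76 that lay beside piRNA genes were described in mixed-stage embryos of the nematode Caenorhabditis elegans. The deposited pooled list holds 30000 candidate peaks, of which 29979 are nuclear. A candidate was taken when its summit lay within 500 bp of an annotated piRNA gene, when no tRNA, snoRNA or ncRNA gene lay within 500 bp of the summit, and when no protein-coding transcript 5′ end did. In all, 1027 nuclear candidates lay near a piRNA gene, 314 of these were left out by the other conditions, and 713 remained. They are called the piRNA-site candidates below. No measured value entered the choice beyond the place of each candidate on the list, and the 713 were set against the other 4029 candidates of chromosome IV. Of the 713, 552 lay inside the dense piRNA clusters of chromosome IV, 56 elsewhere on that chromosome and 105 on other chromosomes, so the set is wider than the clusters.

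The study measured DNA bound by NHR-76, a nuclear hormone receptor, by chromatin immunoprecipitation and sequencing (ChIP-seq). Both libraries, biological replicates 1 and 2, came from strain OP203, whose genotype is unc-119(ed3) III; wgIs203, with NHR-76 carrying a GFP-FLAG tag at its C terminus. Embryos of both sexes and of mixed stages were used whole, so no tissue was measured apart from the rest. The labels give no wild-type or treated group, and all comparisons are among peaks of the same lists. The list of replicate 1 holds 7516 peaks and that of replicate 2 holds 30000. The signal value of each peak is the authors' own, on a scale that is not stated, and the read depth behind it is unknown.

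The piRNAs of the worm, also named 21U-RNAs, are short guide RNAs that begin with U and are loaded on the Piwi protein PRG-1, which silences transposons and foreign sequences in the germline. Most are transcribed by RNA polymerase II from a great many tiny separate genes in AT-rich stretches of chromosome IV. Upstream of many of them stands a conserved motif with the core CTGTTTCA, where a complex that includes SNPC-4 and PRDE-1 acts. NHR-76 is known for its part in a neural fat-loss axis.

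The annotation used here (Ensembl, assembly WBcel235, the same as ce11) lists 15363 piRNA genes, each of 21 bp, and 14714 of them are on chromosome IV. The 1 Mb bins with at least 200 piRNA genes form a left cluster, at chrIV:4000001-7000000 with 2827 genes, and a right cluster, at chrIV:13000001-17493829 with 11574 genes. Most piRNA genes start with T on their own strand, 14784 of them (96.2%). The core CTGTTTCA stood in the 60 bp upstream of 5149 genes (33.5%), on the gene's strand, with a median of 38 bp between the motif and the first base of the gene. On other chromosomes 44 of 649 genes (6.78%) had it.

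The windows that reach 100 bp to each side of the summits of the 5 strongest piRNA-site candidates are shown first, because they carry the highest values of the set. All are on chromosome IV of ce11 (RefSeq sequence of WBcel235), plus strand, and capitals mark bases of annotated piRNA genes. The windows lie at chrIV:9718408-9718608, chrIV:5754007-5754207, chrIV:14599293-14599493, chrIV:5526948-5527148 and chrIV:16024225-16024425, and each is called by the nearest piRNA gene.
21ur-8796: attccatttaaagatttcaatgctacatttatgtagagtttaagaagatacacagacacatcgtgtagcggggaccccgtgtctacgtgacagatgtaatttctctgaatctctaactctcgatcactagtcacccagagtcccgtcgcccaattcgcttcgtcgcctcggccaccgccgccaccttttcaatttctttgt
21ur-10289: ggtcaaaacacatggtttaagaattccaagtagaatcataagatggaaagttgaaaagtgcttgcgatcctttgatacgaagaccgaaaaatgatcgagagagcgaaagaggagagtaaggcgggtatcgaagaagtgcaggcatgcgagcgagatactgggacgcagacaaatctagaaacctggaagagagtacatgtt
21ur-8772: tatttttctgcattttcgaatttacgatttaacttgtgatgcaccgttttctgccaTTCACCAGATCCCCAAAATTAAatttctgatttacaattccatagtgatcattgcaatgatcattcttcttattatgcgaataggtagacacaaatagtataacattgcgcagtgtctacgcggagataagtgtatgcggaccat
21ur-15285: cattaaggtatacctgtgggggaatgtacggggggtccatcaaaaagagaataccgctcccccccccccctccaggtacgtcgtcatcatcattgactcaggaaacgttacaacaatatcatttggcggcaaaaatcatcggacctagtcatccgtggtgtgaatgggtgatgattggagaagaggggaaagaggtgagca
21ur-201: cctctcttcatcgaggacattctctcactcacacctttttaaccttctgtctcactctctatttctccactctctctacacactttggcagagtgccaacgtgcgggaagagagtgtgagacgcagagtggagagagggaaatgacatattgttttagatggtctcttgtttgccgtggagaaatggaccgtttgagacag
Of these, the window at 21ur-8772 alone holds piRNA genes, 2 that overlap each other. None of the 5 holds CTGTTTCA on either strand, where 12.8% of the 713 do, so 5 windows are too few to set them apart. The peaks at 21ur-8772 and 21ur-201 had 9 piRNA genes within 500 bp, against a median of 2 over the 713. Of the 5 windows, 4 have a GC content of 43.8% to 50.2%, against a median of 32.8% over the 713.

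The 3 strongest candidates with CTGTTTCA in the window are shown for the usual layout of a piRNA gene, with the motif, a spacer and the transcribed bases. Capitals mark the motif and the bases of annotated piRNA genes, which are cut off where they pass the window's end. The windows lie at chrIV:14847446-14847646 and chrIV:16063128-16063328 on the plus strand, and at chrIV:13625980-13626180 on the minus strand.
21ur-9364: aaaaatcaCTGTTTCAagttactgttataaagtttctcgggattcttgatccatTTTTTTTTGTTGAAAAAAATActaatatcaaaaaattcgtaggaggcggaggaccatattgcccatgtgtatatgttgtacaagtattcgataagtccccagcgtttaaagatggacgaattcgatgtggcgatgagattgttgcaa
21ur-3619: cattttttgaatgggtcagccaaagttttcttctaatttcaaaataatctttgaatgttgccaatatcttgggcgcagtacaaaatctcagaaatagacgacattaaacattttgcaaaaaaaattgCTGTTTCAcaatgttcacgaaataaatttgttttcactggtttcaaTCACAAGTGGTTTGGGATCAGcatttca
21ur-3349: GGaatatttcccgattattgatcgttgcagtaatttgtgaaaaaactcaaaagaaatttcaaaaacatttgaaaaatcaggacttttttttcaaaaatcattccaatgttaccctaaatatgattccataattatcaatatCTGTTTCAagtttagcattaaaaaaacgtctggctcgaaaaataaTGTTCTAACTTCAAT
Their signals were 10.7, 7.94 and 7.11, in the order shown. In each the motif copy lay in the 60 bp upstream of an annotated piRNA gene on the same strand. The copies stood 89 bp before, 30 bp after and 45 bp before the summit on the plus-strand coordinate, so none was centred on the summit.

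None of the piRNA-site candidates was on the authors' final, IDR-thresholded list. The longer list of replicate 2 held more of them than that of replicate 1. The same was so for all nuclear candidates, with 69.2% overlapping a listed peak of replicate 2 and 16.7% one of replicate 1. Of 713 piRNA-site candidates 0 were final peaks, which allows a share of up to 0.421% by the limit of 3 counts. Of all pooled candidates 0.467% were final, of the nuclear ones 0.407% and of those on chromosome IV 0.280%. The nuclear and the chromosome IV shares are below that limit, so a shortfall of final peaks was not detectable with 713 candidates. The strongest stood at rank 261 of the pooled list, and 24 other candidates of chromosome IV had a higher signal. Among the 1000 candidates of highest signal, 15 were piRNA-site candidates, where the whole pooled list has 713 in 30000. Of the 12 strongest, all 12 overlapped a listed peak of replicate 2 and 4 overlapped one of replicate 1. The plot of the 12 strongest by list shows that the values from replicate 1, where present, were the lowest of the 3.

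**Figure D1:**
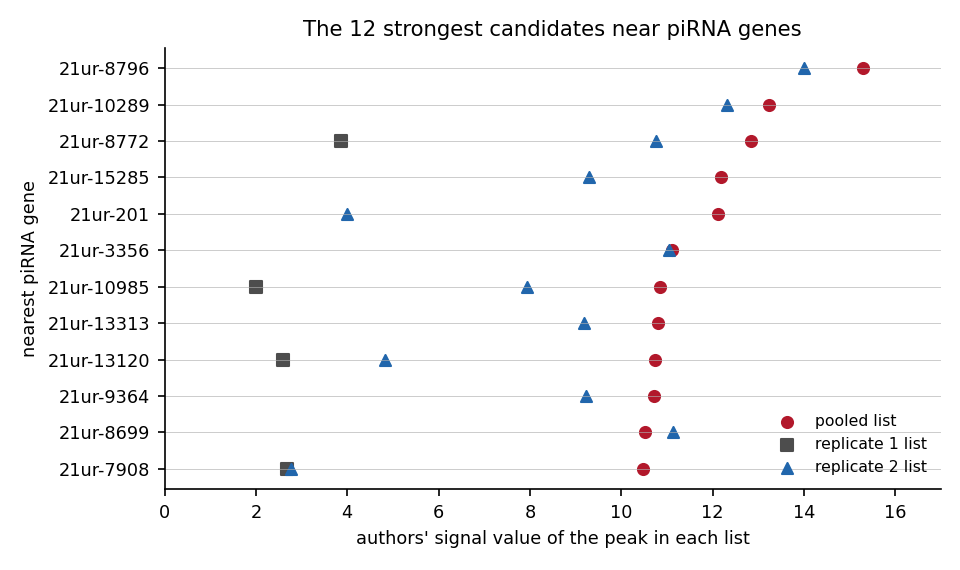
Signal value (horizontal axis, the authors' scale) of the 12 strongest piRNA-site candidates in the pooled list (circles), the replicate 1 list (squares) and the replicate 2 list (triangles), each row named by the nearest piRNA gene. Pooled values run from 10.5 to 15.3, and 4 of the 12 rows have a replicate 1 value, between 2.00 and 3.85.

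The strongest piRNA-site candidate, with a pooled signal of 15.3, lay in intergenic sequence at chrIV:9718338-9718677, outside both clusters. Its only piRNA gene within 500 bp was 21ur-8796 (WBGene00170904), 328 bp away. It had a signal of 14.0 in replicate 2, at rank 200, and no listed peak in replicate 1. The next, at chrIV:5753937-5754276 in the left cluster, lay in an intron of nhr-46, itself a nuclear hormone receptor gene. Its pooled signal was 13.2 and that of replicate 2 was 12.3, replicate 1 listed no peak, and 21ur-10289 (WBGene00169862) was 259 bp away. For both, the replicate that listed the peak gave nearly the pooled value, and a single piRNA gene placed them in the set.

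The third, at chrIV:14599223-14599562, had the densest surroundings of the 3, with 9 piRNA genes within 500 bp, 6 on the plus strand and 3 on the minus strand. It was intergenic, 23 bp from 21ur-8772 (WBGene00165525), with a pooled signal of 12.8. Replicate 1 gave 3.85 (rank 1345) and replicate 2 gave 10.8 (rank 503), so both lists held it, at different heights. The peak in an intron of unc-5, the netrin receptor gene for axon guidance, at chrIV:5526878-5527217, had a pooled signal of 12.2 and 9.29 in replicate 2. The peak in an intron of jac-1, a p120-catenin gene of cell junctions, at chrIV:16024155-16024494, had 12.1 pooled but 3.98 in replicate 2 (rank 13714), with 9 piRNA genes within 500 bp. Neither was listed in replicate 1. At jac-1 the value of replicate 2 was far below the pooled one, though above the median of 3.42 over the piRNA-site peaks of that list.

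The other 7 of the 12 strongest had pooled signals between 10.5 and 11.1. A peak in a coding exon of oac-37, an acyltransferase-family gene, gave 11.1 in the pooled list and 11.1 in replicate 2, and one in a coding exon of oac-48, of the same family, gave 10.5 and 11.1. A peak on chromosome III at 4283145 to 4283484, beside 21ur-13313, gave 10.8 and 9.18 and was the only one of the 12 off chromosome IV. The peak at 21ur-9364, in a coding exon of Y57G11C.22 and with the upstream motif, gave 10.7 and 9.22. These 4 were absent from the list of replicate 1.

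The remaining 3 of the 12 were listed in both replicates. In an intron of R13H7.2 the pooled signal was 10.8, with 2.00 in replicate 1 and 7.94 in replicate 2. In an intron of anoh-2, an anoctamin-family gene, it was 10.7, with 2.60 in replicate 1 and 4.83 in replicate 2. In an intron of C01B10.6 it was 10.5, with 2.68 in replicate 1 and 2.78 in replicate 2. The pooled signal was above both replicate values in all 3, and values from different lists need not share a scale.

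At 11 piRNA-site candidates, each replicate had its own summit no more than 100 bp away. The strongest of them were those in R13H7.2 and C01B10.6. Next came one in an intron of fkh-7, a forkhead gene, with 7.58 pooled, 2.43 in replicate 1 and 4.32 in replicate 2, beside 21ur-2236. The peak at 21ur-4334, in a pseudogene, had 7.40 pooled, 2.85 in replicate 1 and 3.51 in replicate 2. The peak at 21ur-2721, whose summit was 3 bp from that gene and whose window held the upstream motif, had 6.38 pooled, 2.55 in replicate 1 and 3.10 in replicate 2. Both replicates thus placed a summit at these sites. The median over all piRNA-site peaks of the list was 2.60 in replicate 1 and 3.42 in replicate 2, and the values of these 5 lay on both sides of it in each list.

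The candidates with the most piRNA genes around them were not among the strong ones. The one with 12 piRNA genes within 500 bp, at chrIV:15762032-15762371 beside 21ur-9925, had a pooled signal of 2.88 (rank 29221), none in replicate 1 and 3.83 in replicate 2. The 4 with 11 genes and the highest signals, beside 21ur-3869 in an intron of egl-23, 21ur-12763, 21ur-14918 and 21ur-12106, had 4.99, 4.63, 3.57 and 2.83. Of these values, 4.99 and 4.63 lay above the median of 4.06 over the 713. All 5 were in the right cluster, and replicate 1 listed none of them. It listed 10.6% of the 388 piRNA-site candidates there, so 5 peaks are too few to set them apart. The lowest signal of all, 2.82 at rank 29997, was at 21ur-15386 on chromosome I, within an intron of W09G3.6 and listed in neither replicate.

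Over the whole set, piRNA-site candidates had somewhat lower signals than the other candidates of chromosome IV. Their pooled signal ran from 2.82 to 15.3 with a median of 4.06 (quartiles 3.32 and 5.09), against 2.82 to 82.8 with a median of 4.28 (quartiles 3.43 and 5.67) in the others. The ratio of the medians was 0.947 in the pooled list, 0.947 in the list of replicate 1 and 0.911 in that of replicate 2. In each list the lowest values and the quartile boxes overlapped, the others reached much higher at the top, and the upper quartile differed more than the lower one. The tops lay closer when the others were held to the same exclusions, with no piRNA gene within 500 bp. The highest pooled value of these others was 15.6, against 15.3 for piRNA-site candidates. It was 7.52 against 5.07 in replicate 1 and 15.998 against 14.002 in replicate 2. Peaks of 1 list share their libraries, so these differences describe 2 libraries and carry no p-value.

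Shares among the stronger peaks were also lower. The gap was smaller under matched exclusions over the whole chromosome, but not within the clusters. In the top 25% of chromosome IV signals stood 140 piRNA-site candidates (19.6%, exact Clopper-Pearson 95% interval 16.8% to 22.7%), where all chromosome IV candidates give 25.0% by definition and the others gave 1046 of 4029. In the top 10% stood 44 (6.17%, interval 4.52% to 8.20%), against 10.6% of the others. Restricting the others to those under the same exclusions, 2429 peaks with no piRNA gene within 500 bp, left 23.1% of them (interval 21.5% to 24.9%) in the same top 25% and 8.32% (interval 7.25% to 9.49%) in the top 10%, with a median of 4.22. Both intervals overlap those of the piRNA-site candidates. Within the clusters alone, 552 piRNA-site candidates had a median of 4.11, against 4.26 in 600 others under the same exclusions. There, 18.8% of the 552 (interval 15.7% to 22.4%) were in the top 25%, against 26.2% of the 600 (interval 22.7% to 29.9%). In the top 10% stood 5.80% (upper limit 8.09%), against 10.5% (lower limit 8.16%). Within the clusters the intervals thus did not overlap for either share. Intervals cover counting error over peaks only.

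**Figure D2:**
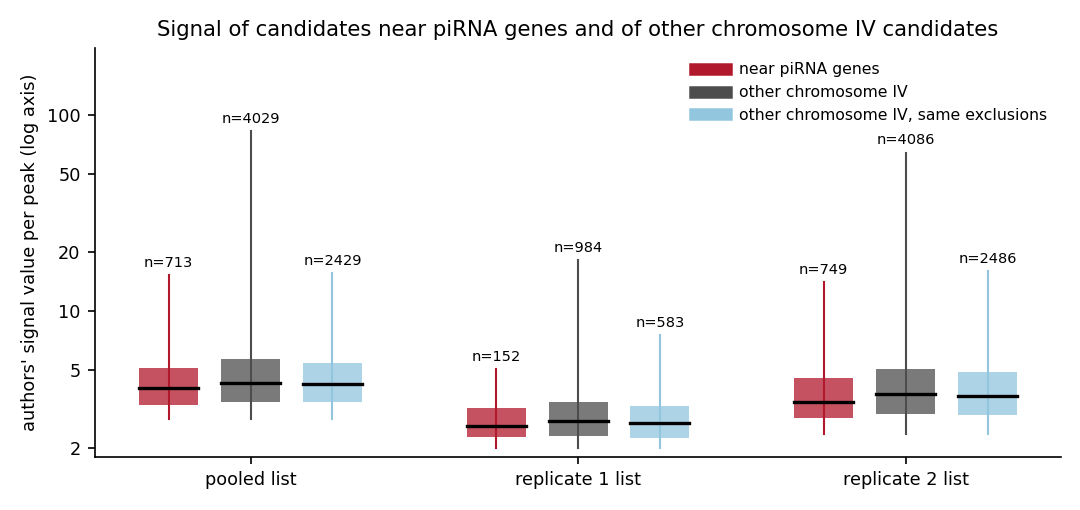
Signal per peak (logarithmic vertical axis, the authors' scale) of piRNA-site candidates (red), other chromosome IV candidates (grey) and those of them under the same exclusions (blue), in the pooled list and in each replicate list. Lines span the lowest to the highest value, boxes the quartiles and black bars the medians; in the pooled list the medians are 4.06, 4.28 and 4.22.

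GC content moved with these differences. The median GC content of the windows was 32.8% for piRNA-site candidates, against 37.8% for other chromosome IV candidates. Within 4 classes of GC content on chromosome IV, a split chosen after the values were seen, medians lay close together. They were 3.77 against 3.81 under 30% GC, 3.99 against 3.97 at 30 to 35%, 4.40 against 4.19 at 35 to 40%, and 4.66 against 4.60 at 40% or more, the piRNA-site candidates first and others under the same exclusions second. In 3 of the 4 classes the piRNA-site candidates had the higher median. Across piRNA-site candidates, signal and GC content had a Spearman rho of 0.21 (n = 713), and across the 2429 others a rho of 0.20. These points share the same pooled alignments, and the part of base composition in the signal was not tested.

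Candidates were also sparse for the space that piRNA loci take up. On chromosome IV, 19.5% of all bases met the rule, but 608 of 4637 summits (13.1%, interval 12.2% to 14.1%) lay there. Counting only bases that pass the exclusions, piRNA-site candidates numbered 179 per Mb, against 262 per Mb where no piRNA gene lay within 500 bp. In the left cluster the densities were 185 against 261 per Mb, and in the right cluster 167 against 230. On the other chromosomes, where piRNA genes are scattered, they were 249 against 276 per Mb.

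The density of summits was lower at each step in the number of piRNA genes nearby. Eligible bases with 1 piRNA gene within 500 bp held 237 summits per Mb, those with 2 to 4 genes 174, those with 5 to 9 genes 150 and those with 10 or more 129, the last resting on 9 summits. The mean GC content of the same bases was 33.1%, 30.9%, 28.5% and 27.4% in that order, and 35.6% where there was no piRNA gene. Within GC classes, bases under the rule held 116 summits per Mb, against 134 elsewhere, under 30% GC. The values were 193 against 215 at 30 to 35%, 267 against 306 at 35 to 40% and 405 against 379 at 40% GC or more. Within each class the densities lay closer in proportion than 179 and 262 per Mb, and at 40% GC or more the order was turned round. GC content and piRNA gene number run together, and their parts were not tested.

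**Figure D3:**
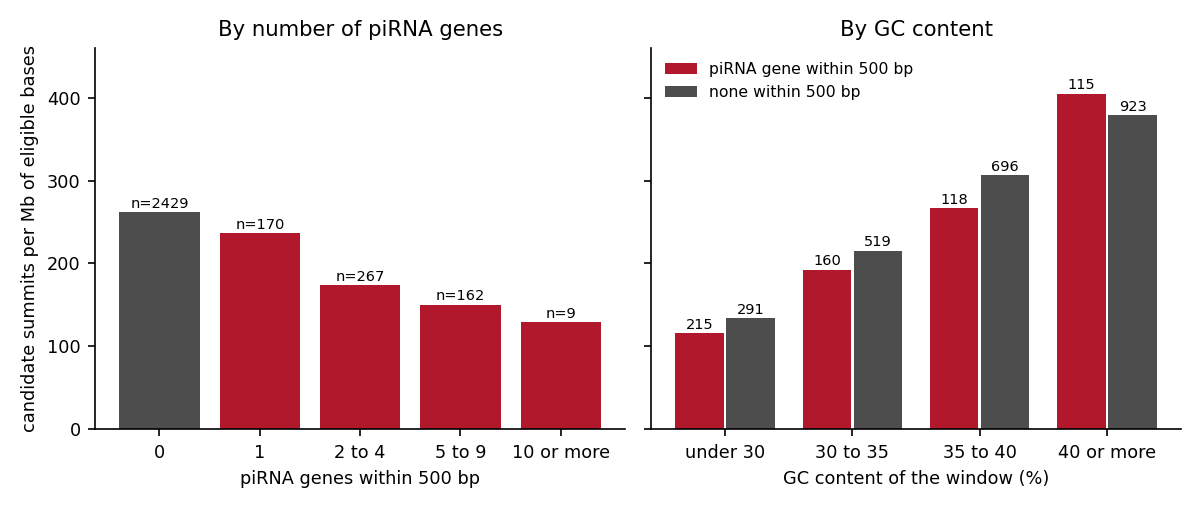
Candidate summits per Mb of bases of chromosome IV that pass the exclusions, by number of piRNA genes within 500 bp (left panel; grey, none; red, 1 or more) and by GC content of the window (right panel; red, a piRNA gene within 500 bp; grey, none). Numbers on the bars are summits; density runs from 262 per Mb with no piRNA gene to 129 with 10 or more, and from 116 to 405 across the GC classes under the rule.

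In the 1 Mb bins of chromosome IV, the full bins of the clusters held 164 to 297 candidates, with a median of 228 over 7 bins, and the other 10 bins held 205 to 337, with a median of 292.5. The 3 bins with the most piRNA genes, 2950 to 3519 each, held 164, 207 and 181 candidates. The last bin is 493829 bp long and reached 324 per Mb with 502 piRNA genes, within the right cluster. Of the 14714 piRNA genes of chromosome IV, 1955 (13.3%) lay within 500 bp of a piRNA-site candidate and 2372 (16.1%) within 500 bp of any candidate.

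**Figure D4:**
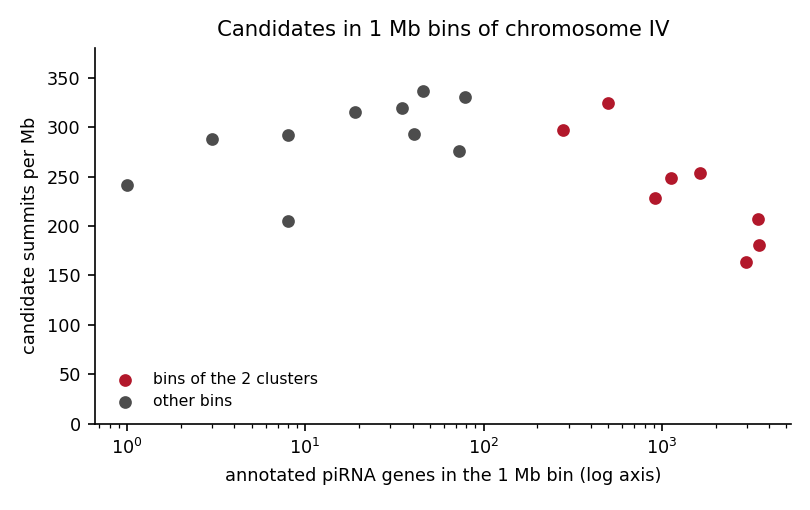
Candidate summits per Mb (vertical axis) against annotated piRNA genes (logarithmic horizontal axis) in each 1 Mb bin of chromosome IV; red, the 8 bins of the clusters; grey, the other 10. The 3 bins with 2950 or more piRNA genes hold 164 to 207 candidates, and 1 bin with 8 piRNA genes holds 205.

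Replicate 1 listed a smaller share of piRNA-site candidates than of all other candidates of the chromosome. The gap was narrower under the same exclusions over the whole chromosome, but not within the clusters. It listed an overlapping peak at 84 of the 713 (11.8%, interval 9.51% to 14.4%), where the share over all chromosome IV candidates was 15.3% and over the others 15.9%. Over the others under the same exclusions it was 14.7% (interval 13.3% to 16.1%), which overlaps the interval of the piRNA-site candidates. Within the clusters it was 65 of 552 piRNA-site candidates (11.8%, interval 9.21% to 14.8%). For the others there under the same exclusions it was 102 of 600 (17%, interval 14.1% to 20.2%). Replicate 2 listed one at 462 (64.8%, interval 61.2% to 68.3%), against 69.1% of the others. Both listed one at 41 (5.75%), against 8.89%, and neither at 208 (29.2%), against 23.9%. Among piRNA-site candidates of the top 25%, replicate 1 held 28 of 140 (20%, interval 13.7% to 27.6%), against 27.2% of 1046 others. Below it the share was 9.77% (interval 7.47% to 12.5%), against 11.9%. Both intervals hold the others' share. Within the GC classes of chromosome IV, from low to high, replicate 1 listed 8.84%, 10%, 11.9% and 16.5% of piRNA-site candidates, against 9.28%, 10.6%, 14.8% and 18.5% of others under the same exclusions. The pooled list comes from the same alignments as both replicate lists, so these shares are no independent support.

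The heights given by the replicates did not run together. Across the 41 piRNA-site candidates listed in both, signals of replicate 1 and replicate 2 had a Spearman rho of -0.02, against 0.31 across 358 other chromosome IV candidates. The 358 were not held to the same exclusions, no interval was computed and 41 peaks are few, so a difference is not established. The pooled signal had a rho of 0.47 with replicate 2 (n = 462) and of -0.05 with replicate 1 (n = 84). These are descriptions across peaks of 2 libraries.

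The left cluster had a higher median signal than the right one. Its 164 piRNA-site candidates had a median signal of 4.40 (quartiles 3.56 and 5.38) and replicate 1 listed 14.6% of them. The 388 of the right cluster had a median of 3.88 (quartiles 3.27 and 4.94), with 10.6% listed in replicate 1. The median number of piRNA genes within 500 bp was 2 in the left and 4 in the right cluster, and the median GC content 33.6% and 31.6%. The 56 elsewhere on chromosome IV had a median of 4.0, and the 105 on other chromosomes 3.97, and of these 105, 24.8% were in the top 25%. The interquartile ranges of all 4 places overlap.

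Median signals were lower close to piRNA genes. Of the 713, 33 had their summit inside a piRNA gene (median signal 4.0) and 255 within 1 to 100 bp of one (3.76). At 201 to 300, 301 to 400 and 401 to 500 bp the medians were 4.35, 4.55 and 4.61, and the median GC content was 37.3%, 39.1% and 37.8%, against 29.4% at 1 to 100 bp. Across all of them, distance and signal had a rho of 0.16. At the edge of the rule on chromosome IV, 45 candidates at 401 to 500 bp had a median of 4.35, and 33 just outside, at 501 to 600 bp under the same exclusions, had 3.95. The number of piRNA genes within 500 bp had a rho of -0.06 with the signal. Summits lay upstream of the nearest piRNA 5′ end in 354 and at or downstream of it in 359.

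By the protein-coding annotation, 330 summits (46.3%) were intergenic, 211 (29.6%) in introns, 126 (17.7%) in coding exons, 20 in 3′ UTRs, 23 in pseudogenes and 3 in 5′ UTRs. Those in coding exons had a median signal of 4.54 and a median GC content of 39.3%, against 3.88 and 31.3% for intergenic ones. In all, 360 lay inside 249 protein-coding genes, and 8 genes held 5 or more. The gene with the most was unc-5, with 11 piRNA-site candidates and 97 piRNA genes inside it. Then came fkh-7 and Y105C5A.15 with 7 each, egl-23 (a potassium channel gene) and Y37A1A.4 with 6 each, and anoh-2, ccg-1 and jac-1 with 5 each. These genes were named after their counts were seen, and long genes that hold many piRNA genes have more room under the rule.

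The upstream motif of piRNA genes was common under these candidates, and less common than in the surrounding sequence. CTGTTTCA stood within 100 bp of the summit, on either strand, in 91 piRNA-site candidates (12.8%, interval 10.4% to 15.4%), where all nuclear candidates give 1.53% and other chromosome IV candidates gave 1.74%. All 91 were on chromosome IV, where they were 91 of 608 (interval 12.2% to 18.1%). Of the windows centred on every base of chromosome IV that meets the rule, 21.9% held the motif. The rule itself selects sequence beside piRNA genes, so the excess over other candidates follows from it. Of 99 motif copies, 84 (84.8%) lay in the 60 bp upstream of an annotated piRNA gene on the same strand.

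Motif shares at summits were below those of all eligible bases in each class of piRNA gene number. They were 4.71% against 10.2% with 1 gene, 17.6% against 21.4% with 2 to 4, 34 of 162 against 29.6% with 5 to 9, and 2 of 9 against 33.1% with 10 or more. Within the GC classes they were also lower, at 23.7% against 28.9% under 30% GC and 16.3% against 18.5% at 30 to 35%. At 35 to 40% they were 8.47% against 9.58%, and at 40% or more 3.48% against 4.74%. From low to high GC, the shares at summits rest on 51, 26, 10 and 4 summits with the motif. No interval was computed by class, so a shortfall within any GC class is not established. The median distance from a motif copy to the summit was 53 bp, and 46 of 99 copies were within 50 bp. Signals with and without the motif overlapped, with medians of 4.09 (quartiles 3.30 and 4.99) in 91 and 4.05 (quartiles 3.32 and 5.12) in 622. Replicate 1 listed 10 of the 91 (11.0%) and 74 of the 622 (11.9%).

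**Figure D5:**
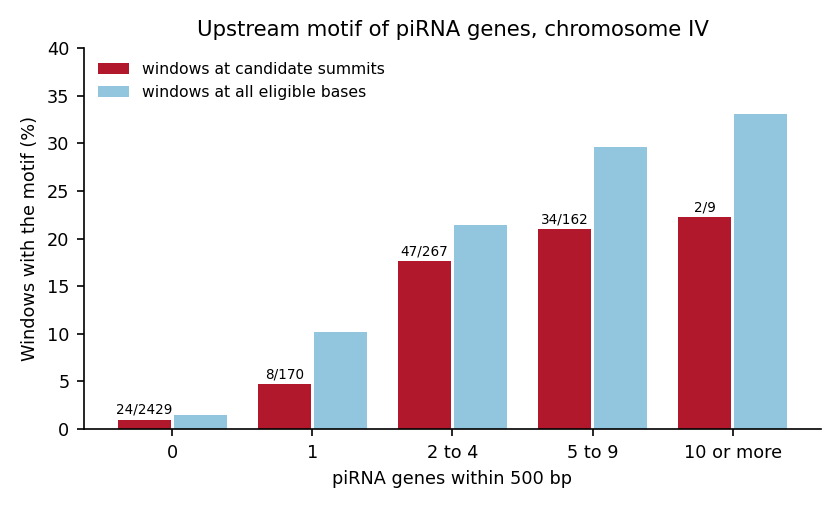
Share of windows on chromosome IV with the upstream motif of piRNA genes on either strand (vertical axis, percent), at candidate summits (red, with counts) and at all bases that pass the exclusions (blue), by number of piRNA genes within 500 bp. The share at summits is the lower one in each class, for example 34 of 162 against 29.6% with 5 to 9 genes.

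Other motifs differed little from the rest of the chromosome, apart from a run of T. The nuclear receptor sites AGGTCA and AAGTCA were in 5.61% and 9.82% of piRNA-site candidates, against 5.93% and 9.01% of other chromosome IV candidates. The forkhead site GTAAACA was in 3.09% against 2.11%, and the extended GATA site TGATAA in 19.2% (interval 16.4% to 22.3%) against 16.7%. A run of 8 T, TTTTTTTT, was in 27.1% against 15.9%. Of those on chromosome IV 28.5% held it, and 32.7% of all windows of that chromosome under the rule. The repeat GAGAGA was in 13.3%, against 606 of 4029 others, and in 6.99% of all windows of chromosome IV under the rule. All were searched on both strands and may overlap one another. A match is a run of letters and not a bound site.

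The genes that make and use piRNAs were looked at from a list of 19 found in the annotation, by the strongest candidate within 1000 bp of a 5′ end. Of these, 12 (63.2%) had a candidate, against 54.1% of 19973 protein-coding genes, with a median of 5.55 against 4.83 for the strongest candidate. Among the transcription factors of piRNA genes, snpc-4, which encodes a DNA-binding subunit of the snRNA-activating complex, had the highest value of the list, 12.3 at chrI:8961957-8962296 (rank 486), with 12.5 in replicate 2 and none in replicate 1. The forkhead gene unc-130 had 8.67, tofu-5 had 2.88, and prde-1 and tofu-4 had none.

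Among processing genes, pid-3, of the complex that handles piRNA precursors, had 9.27, its partners tofu-6 and erh-2 had 5.99 and 7.23, and tofu-1, of the enzyme that cuts the precursor's 5′ end, had 7.57. The gene of the trimming nuclease parn-1 had 4.85 and that of the methyltransferase henn-1 had 4.84, and these 2 alone of the list overlapped a replicate 1 peak, with 3.28 and 2.57. The genes tofu-2, pid-1 and tost-1 had none. Among Argonautes and the RNA polymerases that amplify silencing, prg-1 had 2.88 (rank 29244), ego-1 had 5.12 and rrf-1 had 3.28, while hrde-1 and mut-16, had none (mut-16 encodes a scaffold of amplification). None of the 19 had a candidate on the final list, whose lowest signal was 19.98. Only 0.407% of nuclear candidates were final, so 19 genes are too few to show a shortfall.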

How the data were processed

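Per the deposited README files, the authors made 1 list of peaks and background from each replicate's alignment against a control alignment, 1 from the pooled alignments, and from these the optimal IDR-thresholded list (IDR, irreproducible discovery rate, weighs how far peak ranks repeat). For aligner, caller and threshold, nothing was stated: not given in the sources used here. The deposited lists hold a signal value per peak, of unstated scale, and the −log10 of the q-value, whose cap 725 pooled candidates share. They hold no read counts, so depth is unknown and intervals cover counting over peaks only.

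Peaks of the ce11 lists were placed by summit against the Ensembl annotation of WBcel235, the same assembly, in Python 3.11.15 with numpy 2.4.6, pandas 2.3.3 and scipy 1.17.1. Nearly all peaks have 1 width per list with the summit at the centre. Overlap meant 1 bp or more, and the strongest overlapping replicate peak gave its value. Motif and GC windows reached 100 bp on each side. The rule code was checked on simulated peaks. The ce10 lists were not used here. The 713 regions and the lists were chosen with earlier results of these data known. Named regions are the 12 of highest signal, the 5 with the most piRNA genes, up to 5 with summits in both replicates and the lowest. Alternatives were 1 replicate alone, other distances, exclusions, backgrounds and windows, and, added after seeing the data, GC classes. No test across regions was run.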

Additional observations from a re-analysis of the deposited data

How the results depend on the processing

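Of 63 alternative values for 6 results, 38 stayed within the error of the reported one (for the number of regions, within 1.5 times). For the ratio of medians this error was the SD over the 2 replicate lists, 0.0254. The tally does not measure stability, because some outcomes were fixed beforehand. Other top shares and motif windows change the quantity itself. Keeping only regions of chromosome IV cannot alter the summit to base ratio, and leaving out final peaks removes no piRNA-site candidate. Without one replicate, the number of regions ran from 152 to 749, the ratio of medians from 0.911 to 0.947, the share with CTGTTTCA from 11.8% to 18.2%, and the ratio of summit share to base share, 0.674 with both, from 0.595 to 0.685. Within 200 bp of a piRNA gene there were 450 regions, with 15.3% in the top 25%, a ratio of medians of 0.887, the motif in 19.1% and a summit to base ratio of 0.616. Within 1000 bp the motif share was 9.94%, and with no exclusions the summit to base ratio was 0.739. The top 10% of signals held 6.17% and the top 50% held 45.3%. Replicate 1 covered 9.40% with an overlap of 50% of the peak and 6.87% with summits within 100 bp. The motif share was 5.75% in windows of 50 bp and 34.2% in windows of 250 bp on each side. In the 4 GC classes from low to high, added after seeing the data, the ratio of medians was 0.991, 1.00, 1.05 and 1.01, and the summit to base ratio 0.923, 0.919, 0.891 and 1.06. The lower median of piRNA-site candidates was thus not seen in 3 of the 4, and the cause was not tested. No paired analysis was possible because there is 1 group. The unknown depth and the 2 libraries limit all values.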
